A study of Mus musculus with 6 samples.

Results

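Genes that steer T cells into and out of lymph nodes were examined in mouse samples labelled as CD4+CD25+ regulatory T cells. The defining markers did not bear out the label in full. Foxp3, the lineage factor of these cells, gave no signal above the bacterial control probe sets in either group. It was read by 1 probe set, and whether that set can detect Foxp3 was not tested. Its signal therefore cannot show whether the cells expressed Foxp3. Macrophage and neutrophil markers were high in 1 of the groups, as given below. The other regulatory T cell markers examined, Il2ra, Ctla4 and Ikzf2, had mean signals above those control probe sets in both groups. The genes were chosen by name, for their roles, with earlier results of these data known. They were the sphingosine-1-phosphate (S1P) receptors S1pr1 and S1pr4, their regulator Klf2, the chemokine receptor Ccr7, and the activation markers Cd69 and Cd44. The annotation of the array named 5 of these 6 genes, through 6 probe sets, among 12393 named genes in all. S1pr1, S1pr4, Klf2 and Ccr7 each had 1 probe set and Cd44 had 2, 1423760_at and 1452483_a_at. Cd69 was not analysed here. Expression had been measured on Affymetrix Mouse430a arrays in 3 samples with the genotype HDAC3-fl/fl_FOXP3cre, called Hdac3 deleted here, and in 3 wild type samples, all on the C57BL6 background. In the first group a floxed Hdac3 gene, which encodes a histone deacetylase, meets a Cre recombinase named for Foxp3. CD4+CD25+ cells that do not express Foxp3 would keep the gene. Title and genotype name Hdac3, while the source and description fields of the Hdac3 deleted samples name HDAC11 and HDACII. The labels do not give the age or sex of the mice or the tissue the cells came from. Nor do they say that samples came from separate mice, so the p-values rest on a spread between samples that may be technical only.

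Naive and resting T cells enter lymph nodes from the blood with the help of Ccr7, which senses chemokines made by stromal and endothelial cells of the node. They leave along a gradient of S1P, a lipid that is abundant in lymph and blood and scarce in tissue, through S1pr1. The zinc finger factor Klf2 is required for S1pr1 expression in T cells, and the forkhead factor Foxo1 lies upstream of Klf2 and of Ccr7. After activation T cells lower Klf2, S1pr1 and Ccr7 and raise Cd44, a receptor for the matrix sugar hyaluronan. Cd44 is not particular to T cells, since macrophages, neutrophils and most other leukocytes carry it too.

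RefSeq promoter windows (GRCm38.p6), from 250 bases before to 50 bases after the annotated start, were at hand for 3 of the 5 genes, and S1pr1 and Ccr7 are named only. The windows are shown for Klf2 and S1pr4, which were lower in Hdac3 deleted samples, and for Cd44, which was higher. Klf2 is at chr8:72318812-72319111 on the plus strand, S1pr4 at chr10:81500088-81500387 on the minus strand and Cd44 at chr2:102901616-102901915 on the minus strand. Capitals mark every match, on either strand, to CACCC (the core letters bound by KLF factors), TGTTT (the core of forkhead sites) and the MEF2 consensus (the palindrome bound by MEF2 factors, a run of A or T bases between CTA and TAG). The MEF2 consensus was added after the Klf2 window had been read.
Klf2: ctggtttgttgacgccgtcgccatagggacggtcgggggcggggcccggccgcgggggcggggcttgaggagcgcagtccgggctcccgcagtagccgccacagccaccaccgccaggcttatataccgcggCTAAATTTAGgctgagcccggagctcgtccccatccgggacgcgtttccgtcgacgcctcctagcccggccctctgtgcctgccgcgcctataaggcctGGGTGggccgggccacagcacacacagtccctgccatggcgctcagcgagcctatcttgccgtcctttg
S1pr4: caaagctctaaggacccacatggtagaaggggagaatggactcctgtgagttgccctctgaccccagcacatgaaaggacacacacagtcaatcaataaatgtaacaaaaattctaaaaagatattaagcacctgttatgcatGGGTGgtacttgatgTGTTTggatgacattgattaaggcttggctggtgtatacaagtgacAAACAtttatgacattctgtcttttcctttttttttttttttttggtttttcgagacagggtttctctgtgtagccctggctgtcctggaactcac
Cd44: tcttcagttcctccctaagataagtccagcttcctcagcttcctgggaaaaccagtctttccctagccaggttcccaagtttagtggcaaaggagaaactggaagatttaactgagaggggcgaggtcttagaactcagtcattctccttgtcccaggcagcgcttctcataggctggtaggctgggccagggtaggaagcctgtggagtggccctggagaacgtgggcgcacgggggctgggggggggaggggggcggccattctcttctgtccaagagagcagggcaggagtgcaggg

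The Klf2 window held 1 match to the MEF2 consensus, whose first base lay 118 bases before the start, and 1 CACCC on the opposite strand, whose first base lay 19 bases before the start. The S1pr4 window held 1 CACCC on the opposite strand and 2 TGTTT matches, 1 on each strand. The Cd44 window held none of the 3 motifs, and no match overlapped another. Of all 32851 promoter windows in the table, 57.5% held CACCC, 50.5% held TGTTT and 183 (0.557%) held the MEF2 consensus. A match is a string of letters and not a measured site.

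Several facts of the whole comparison touch the genes below. Values are log2 expression after robust multiarray average (RMA) normalisation, differences are given as Hdac3 deleted less wild type, and n = 3 in each group throughout. Hdac3 itself was 8.49 ± 0.02 in Hdac3 deleted and 9.04 ± 0.03 in wild type samples (SD), a difference of -0.55 (limma adjusted p = 7.45e-05 over all genes). The sources used here do not place that probe set inside or outside the deleted part of the gene. Foxp3 (1 probe set) lay inside the range of the 27 bacterial control probe sets (2.37 to 5.16), called background here, in both groups. All 7 T cell markers examined, among them Cd3e and Cd4, were at least 2-fold lower in Hdac3 deleted samples. All 11 macrophage markers and all 7 measured neutrophil markers were at least 2-fold higher. The log2 of the summed macrophage signal was 16.17 to 16.21 in Hdac3 deleted and 8.71 to 8.75 in wild type samples, and that of the neutrophil signal was 14.94 to 14.96 in Hdac3 deleted and 7.54 to 8.002 in wild type samples. The T cell sum was 13.41 to 13.43 in Hdac3 deleted and 14.75 to 14.84 in wild type samples. In Hdac3 deleted samples no macrophage or neutrophil marker lay in the background range, while in wild type samples 7 and 5 of them did, Marco and S100a8 among these. Of the other marker lists, 1 of 4 B cell, 3 of 5 dendritic cell and 1 of 2 natural killer cell markers were higher, none of these was lower, and 1 of the 2 CD8 markers was lower. Of 4 regulatory T cell markers 1 was higher, by less than 2-fold, and 1 was lower, by at least 2-fold. Foxp3 was the only one of the 4 in the background range. The log2 of their summed signal was 11.76 to 11.83 in Hdac3 deleted and 11.52 to 11.70 in wild type samples. For the Hdac3 deleted samples the markers thus go against a name of T cells alone. Ms4a1 and Pax5, which define B cells, and Ncr1, which defines natural killer cells, lay in the background range in both groups, as did Zbtb46 and Xcr1 of the dendritic cell list. Cd79a and Cd79b of the B cell list and Eomes of the natural killer cell list lay above it in both groups. The log2 of the summed dendritic cell signal was 10.99 to 11.09 in Hdac3 deleted and 7.12 to 7.22 in wild type samples. In RNA pooled from many cells, fewer T cells and less RNA per T cell cannot be told apart, and the part of cell composition in the results below was not tested.

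The S1P receptors were lower in Hdac3 deleted samples. S1pr1, the receptor that takes T cells out of lymph nodes, measured 8.85, 8.81 and 8.86 in Hdac3 deleted samples, against 10.36, 10.47 and 10.34 in wild type samples. Every Hdac3 deleted value lay below every wild type value, with a gap of 1.48 between the groups. Its difference was -1.55 (SE 0.06, 95% interval -1.70 to -1.40), a 2.93-fold lower level (limma adjusted p = 1.10e-06 over 22626 probe sets). S1pr4, a second S1P receptor found mainly on lymphocytes and other blood cells, measured 9.13, 9.26 and 9.17 in Hdac3 deleted samples, against 10.17, 10.22 and 10.22 in wild type samples. These groups did not overlap either, with a gap of 0.91. S1pr4 fell by 1.02 on the log2 scale (SE 0.06, interval -1.16 to -0.87, adjusted p = 9.12e-06), which lies on the edge of a 2-fold difference. The difference was -0.99 without Hdac3 deleted replicate 1 and -0.82 with cyclic loess.

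Klf2, the regulator of S1pr1, was also lower. It measured 11.13, 11.20 and 11.14 in Hdac3 deleted samples, against 11.94, 12.11 and 12.15 in wild type samples. Its 3 wild type values were the most spread of any probe set examined among these genes (SD 0.11), and wild type replicate 1 was the lowest of them, yet the groups stayed 0.74 apart. The difference was -0.91 (SE 0.07, interval -1.09 to -0.74, adjusted p = 4.03e-05), a 1.88-fold lower level. Leaving out any 1 sample kept it between -0.98 and -0.87.

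Ccr7, the lymph node entry receptor, measured 10.68, 10.71 and 10.72 in Hdac3 deleted samples, against 11.61, 11.63 and 11.62 in wild type samples. The values lay close together within each group (SD 0.02 in Hdac3 deleted and 0.01 in wild type samples), and the groups were 0.89 apart. The difference was -0.92 (SE 0.05, interval -1.05 to -0.79, adjusted p = 7.88e-06), a 1.89-fold lower level. Neither Klf2 nor Ccr7 reached the 2-fold threshold that the series design sets, except with median centring, where they came to -1.07 and -1.08.

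Cd44, the hyaluronan receptor that marks activated and memory T cells, moved the other way in both of its probe sets. Probe set 1423760_at measured 11.63, 11.67 and 11.61 in Hdac3 deleted samples, against 10.00, 10.00 and 9.99 in wild type samples. Probe set 1452483_a_at measured 8.38, 8.39 and 8.35 in Hdac3 deleted samples, against 6.89, 7.03 and 7.03 in wild type samples. In each set all Hdac3 deleted samples were above all wild type samples, with gaps of 1.61 and 1.32. The first set differed by 1.64 (SE 0.05, interval 1.51 to 1.77, adjusted p = 4.30e-07), a 3.12-fold higher level. The second differed by 1.40 (SE 0.06, interval 1.24 to 1.55, adjusted p = 2.25e-06), a 2.63-fold higher level. Macrophage and neutrophil markers rose by medians of 7.26 and 6.41 in the same samples, and their part in the Cd44 difference was not tested.

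**Figure D1:**
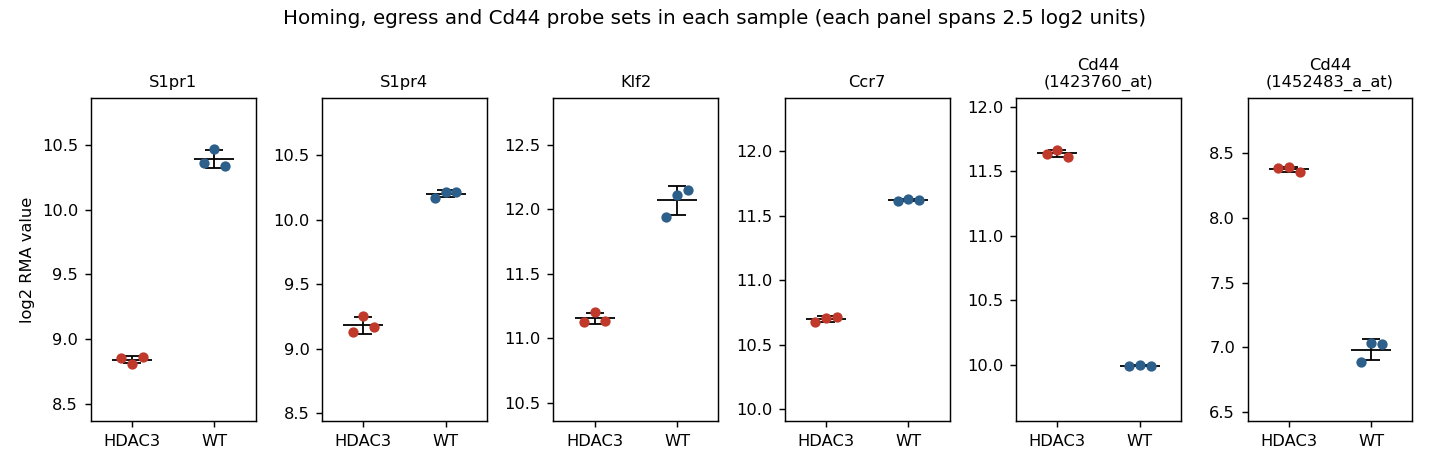
Log2 RMA value (vertical axis) in the Hdac3 deleted (HDAC3, red) and wild type (WT, blue) samples, with a panel for each probe set. All panels span the same number of log2 units, each around its own centre, so heights do not compare between panels. Points are samples, the bar is the mean and the whiskers are 1 SD. In every panel the groups are apart: S1pr1, S1pr4, Klf2 and Ccr7 are lower in Hdac3 deleted samples, S1pr1 by the most (-1.55), and both Cd44 sets are higher.

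In all, 4 genes fell and 1 rose at adjusted p 0.05, and the groups did not overlap in any of the 6 probe sets. Such calls were common on these arrays. Of all 22626 probe sets 37.4% were called lower and 20.1% higher, and 64.6% had groups without overlap. With the 2-fold threshold, which S1pr1, S1pr4 and both Cd44 sets passed, the shares were 4.33% lower and 7.91% higher. A difference as low as that of S1pr1 or lower was found in 1.12% of all probe sets. For S1pr4, Ccr7 and Klf2 the corresponding shares were 4.13%, 5.33% and 5.47%. Of all probe sets 4.80% were as high as Cd44 set 1423760_at or higher, and 5.75% as high as set 1452483_a_at or higher. The median difference over all probe sets was -0.17. Median centring moved it to -0.33 and cyclic loess to -0.000631, so differences of that size have no settled direction. Of the calls at adjusted p 0.05, 35.0% were higher. That share was 21.7% after median centring and 55.7% after cyclic loess. For 2-fold calls the shares were 64.6%, 50.7% and 77.8%.

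**Figure D2:**
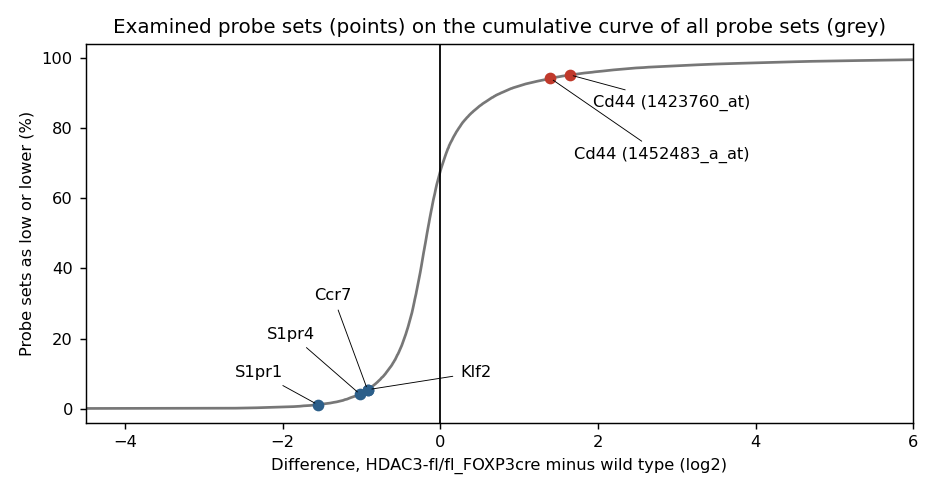
Cumulative curve of the difference, Hdac3 deleted minus wild type (log2, horizontal axis), over all 22626 probe sets, with the share of probe sets as low or lower on the vertical axis (%) and the examined probe sets as points (blue lower, red higher). S1pr1 sits at 1.12%, S1pr4, Ccr7 and Klf2 at 4.13% to 5.47%, and the Cd44 sets at 94.2% and 95.2%.

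The 4 falling genes were next set against T cell genes measured on the same arrays. Cd3d, Cd3e, Cd3g and Cd247 encode the invariant chains of the T cell receptor complex and are called the CD3 genes here. They differed by -1.21, -1.51, -1.56 and -1.59. Their mean was 10.75 ± 0.02 in Hdac3 deleted and 12.22 ± 0.04 in wild type samples (SD), a fall of 1.47. After subtraction of that mean from each sample, S1pr1 was at -1.91, -1.95 and -1.87 in Hdac3 deleted samples, against -1.81, -1.79 and -1.88 in wild type samples, and the groups overlapped. It differed by -0.08 (interval -0.23 to 0.07, limma adjusted p = 0.233), so no difference from the fall of the CD3 genes was called for S1pr1. On the same scale S1pr4, Klf2 and Ccr7 were higher in Hdac3 deleted samples, by 0.45 (interval 0.30 to 0.61, adjusted p = 0.000220), 0.55 (0.39 to 0.72, adjusted p = 8.73e-05) and 0.55 (0.40 to 0.69, adjusted p = 4.49e-05). Their falls were thus smaller than the mean fall of the CD3 genes. Before subtraction, the intervals of S1pr4 (-1.16 to -0.87) and Klf2 (-1.09 to -0.74) overlapped that of Cd3d (-1.35 to -1.07). The interval of Ccr7 (-1.05 to -0.79) did not. Relative to the CD3 mean the Cd44 sets were higher by 3.11 and 2.86. On that scale 97.8% of all probe sets were called higher and 0.831% lower, with a median of 1.30, so a rise there is the common case.

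The outcome depended on which T cell gene was subtracted. Cd4, the coreceptor named in the cells' label, was 9.17 ± 0.06 in Hdac3 deleted and 10.19 ± 0.05 in wild type samples (SD), a difference of -1.02, smaller in size than that of each CD3 gene. Relative to Cd4 alone, S1pr1 was lower by 0.53 on the log2 scale (-0.53, adjusted p = 0.000279). S1pr4, Klf2 and Ccr7 then differed by 0.01, 0.11 and 0.10 and no longer passed (adjusted p = 0.932, 0.285 and 0.244). The fall of S1pr1 was thus close to those of Cd3e, Cd3g and Cd247, larger than that of Cd3d (-1.21, interval -1.35 to -1.07), and the falls of S1pr4, Klf2 and Ccr7 were close to that of Cd4.

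**Figure D3:**
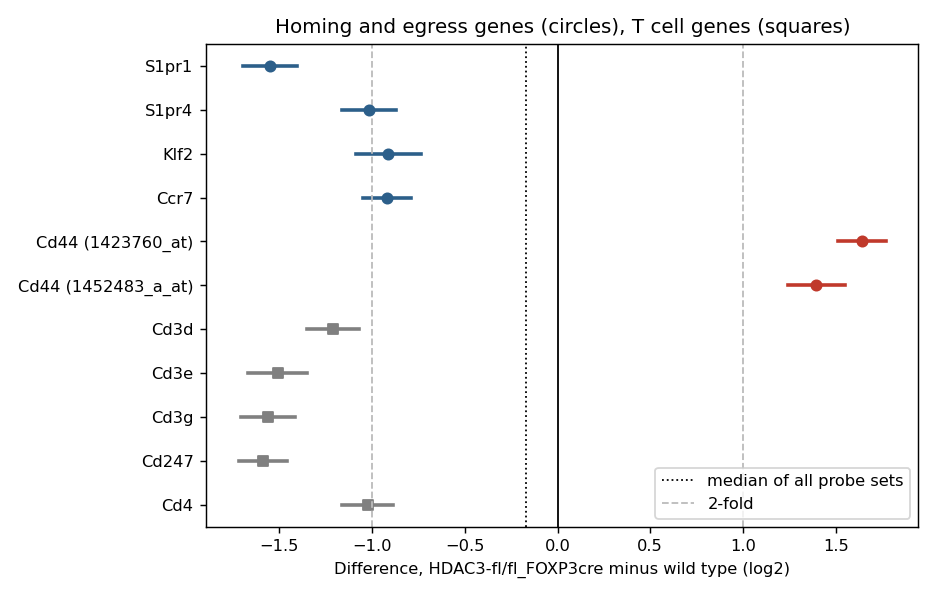
Difference, Hdac3 deleted minus wild type (log2, horizontal axis), with its 95% interval for the homing, egress and Cd44 probe sets (circles) and for T cell genes (grey squares); dashed lines mark a 2-fold difference and the dotted line the median of all probe sets (-0.17). S1pr1 lies beside Cd3e, Cd3g and Cd247, Cd3d (-1.21) lies nearer to Cd4, and S1pr4, Klf2 and Ccr7 lie beside Cd4 (-1.02), and both Cd44 sets lie on the other side of 0.

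The size of the fall was then compared among the genes themselves, a comparison chosen after the data were seen. Relative to Ccr7, S1pr1 was lower by a further 0.63 on the log2 scale (-0.63, interval -0.78 to -0.48, adjusted p = 4.93e-05). S1pr4 and Klf2 did not differ from Ccr7 past the threshold, at -0.10 (interval -0.24 to 0.05, adjusted p = 0.169) and 0.01 (interval -0.16 to 0.18, adjusted p = 0.908). Relative to S1pr1, S1pr4 was higher by 0.53 (interval 0.33 to 0.73, adjusted p = 0.000144) and Klf2 by 0.64 (interval 0.43 to 0.85, adjusted p = 5.02e-05). On these scales 93.4% and 98.8% of all probe sets were called in either direction. The log2 difference of S1pr1 was thus larger in size than those of S1pr4, Klf2 and Ccr7, each read by 1 probe set. Probe sets of the same gene also differed in size, as those of Foxo1 did (-0.41 to -1.49). The p-values do not cover that spread, so the order of these genes in RNA amount is not settled. S1pr4 and Klf2 were not compared with each other.

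Other genes of the same pathways were read with 1 probe set per gene, the one with the highest mean. The list of these genes was chosen with earlier results of these data known, so its counts are descriptive only. Of 39 listed genes 33 were measured, and S1pr2, Grk2, Ccl19, Ccl21a and Spp1 were among those not analysed here. At adjusted p 0.05 over all 12393 genes, 9 of the 33 were higher and 13 lower, of which 8 and 11 were above background in at least 1 group. Over all genes 22.4% were called higher and 38.8% lower. The list had a median difference of -0.10, against -0.17 over all genes, and its sign was not settled: cyclic loess gave 0.13 and median centring -0.26. With the 2-fold threshold 3 were higher (Plpp3, Klf4 and Sgpl1) and 2 lower (Itga4 and Foxo1), where all genes had 9.04% and 4.46%.

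Among genes of S1P handling, a pair of enzymes that break down S1P rose. Plpp3, a membrane phosphatase that removes S1P outside the cell, measured 9.62, 9.56 and 9.74 in Hdac3 deleted samples, against 4.51, 4.64 and 4.51 in wild type samples. All of those wild type values lay in the background range. Measured from its top, Plpp3 was at least 22.4-fold higher (adjusted p = 1.23e-08), and at least 11.7-fold by its second probe set. Sgpl1, the lyase that cleaves S1P inside the cell, averaged 9.23 ± 0.05 in Hdac3 deleted and 7.74 ± 0.08 in wild type samples (SD), higher by 1.49 (adjusted p = 1.65e-06). Its second probe set, whose wild type mean lay in the background range, was at least 1.70-fold higher. The S1P phosphatase gene Sgpp1 differed by -0.26 (adjusted p = 0.0712), but its other probe sets were called lower, at -0.44 and -0.47 (adjusted p = 0.0396 and 0.0409 over all probe sets). The S1P-making kinase gene Sphk2 differed by 0.02 (adjusted p = 0.824), and its other probe set by -0.28 (adjusted p = 0.0448 over all probe sets). The receptor genes S1pr3 and S1pr5, the kinase gene Sphk1 and the S1P exporter gene Spns2 lay in the background range in both groups, so their calls give no readable direction. The median difference of the macrophage markers was 7.26 in the same samples, with 7 of the 11 in the background range in wild type samples. The part of such cells in the Plpp3 and Sgpl1 differences was not tested.

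Regulators of homing genes moved both ways. Foxo1, the forkhead factor upstream of Klf2 and Ccr7, averaged 9.10 ± 0.07 in Hdac3 deleted and 10.20 ± 0.06 in wild type samples (SD), a difference of -1.10 (adjusted p = 6.56e-06). All 4 Foxo1 probe sets were lower, by 0.41 to 1.49 on the log2 scale (-0.41 to -1.49). Foxo3, a related forkhead factor, fell by 0.36 (adjusted p = 0.00138). Among relatives of Klf2, Klf3 fell by 0.36 (adjusted p = 0.00250), Klf4 rose by 1.99 (adjusted p = 4.79e-05) and Klf10 rose by 0.35 (adjusted p = 0.00338). Klf4, a factor also known from monocytes, averaged 8.19 ± 0.11 in Hdac3 deleted and 6.21 ± 0.34 in wild type samples (SD), and its second probe set rose by 2.62. Klf6 differed by -0.07 (adjusted p = 0.297), while its other probe sets were called higher, at 0.32 and 0.24 (adjusted p = 0.00903 and 0.0485 over all probe sets). Klf13 differed by -0.12 (adjusted p = 0.0798). Of its other probe sets, 1 was called lower at -0.25 (adjusted p = 0.0122 over all probe sets) and 1 lay in the background range in both groups. With cyclic loess the difference of Klf3 was -0.16 and did not pass (adjusted p = 0.0943).

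Adhesion and homing receptors were divided. Itga4 and Itgb7, which pair as the gut homing integrin alpha4 beta7, fell by 1.20 (adjusted p = 8.27e-06) and 0.77 (adjusted p = 2.04e-05). Of the other Itga4 probe sets, 1 lay in the background range in both groups and 1 differed by -0.11 (adjusted p = 0.296). Of the chains of the integrin LFA-1, Itgal differed by -0.53 (adjusted p = 0.00902) and Itgb2 by 0.22 (adjusted p = 0.0134), but Itgb2 was at 0.06 with median centring (adjusted p = 0.341). Fut7, which makes selectin ligands, rose by 0.71 (adjusted p = 0.000142) and the follicle homing receptor gene Cxcr5 by 0.35 (adjusted p = 0.00184). Cxcr4, a receptor for the chemokine of bone marrow stroma, averaged 9.97 ± 0.05 in Hdac3 deleted and 9.94 ± 0.08 in wild type samples (SD), a difference of 0.03 (adjusted p = 0.702). Cyclic loess put Cxcr4 at 0.23 (adjusted p = 0.00915). Itgb1 and the selectin ligand gene Selplg differed by -0.05 and -0.08 (adjusted p = 0.527 and 0.189).

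Of 9 measured genes that couple these receptors to movement, 5 fell, 1 rose and 3 did not pass, where over all genes 38.8% were called lower and 22.4% higher. Their median difference was -0.22, against -0.17 over all genes, and 3 of the 5 falls did not pass with cyclic loess. Coro1a, an actin regulator needed for T cell egress, averaged 12.84 ± 0.05 in Hdac3 deleted and 13.50 ± 0.05 in wild type samples (SD), a difference of -0.66 (adjusted p = 5.45e-05). The GTPase gene Rac2 fell by 0.55 (adjusted p = 6.13e-05), the adaptor gene Rassf5 by 0.35 (adjusted p = 0.000759), the kinase gene Stk4 by 0.30 (adjusted p = 0.00495) and the G protein gene Gnai2 by 0.22 (adjusted p = 0.0125). With cyclic loess Rassf5, Stk4 and Gnai2 were at -0.14, -0.13 and -0.000685 and did not pass (adjusted p = 0.0581, 0.147 and 0.993). Gnai2 also did not pass without Hdac3 deleted replicate 1 (-0.19, adjusted p = 0.0512). Rgs1, a brake on chemokine and S1P receptor signalling, was the gene that rose, by 0.80 (adjusted p = 1.39e-05). It averaged 12.79 ± 0.05 in Hdac3 deleted and 11.99 ± 0.00177 in wild type samples (SD). Gna13, Dock2 and Rap1b differed by 0.14, -0.11 and -0.10 and did not pass (adjusted p = 0.0602, 0.0981 and 0.180).

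**Figure D4:**
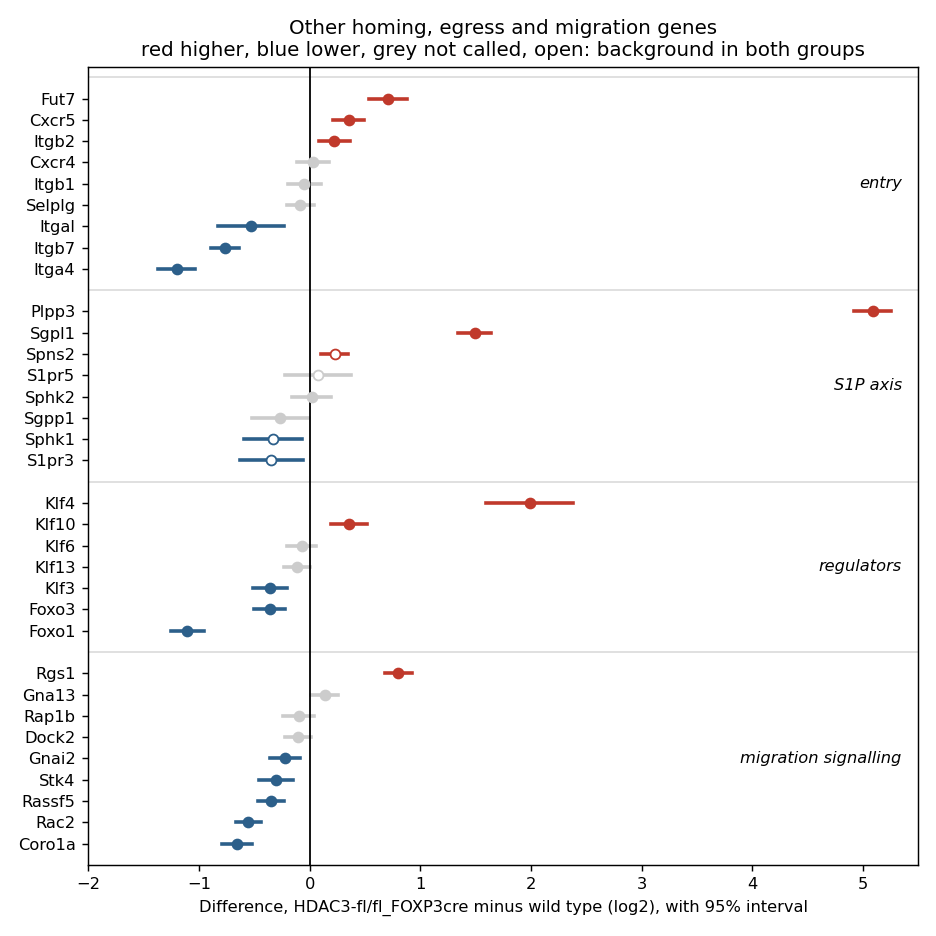
Difference, Hdac3 deleted minus wild type (log2, horizontal axis), with its 95% interval for the 33 measured genes of entry, S1P handling, regulation and migration signalling; red is higher, blue lower, grey not called, and open points lay in the background range in both groups. Plpp3 (5.09, measured from background in wild type) is farthest to the right and Itga4 (-1.20) and Foxo1 (-1.10) farthest to the left.

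The genes most like each one over the 6 samples were found by the root mean square distance between values centred on each gene's own mean. For S1pr1 they were Tbrg1, Eya2 and Ndrg3, at 0.035 to 0.044 log2 units. Nearest to S1pr4 were Armc7, Eef1e1 and Grpel1 (0.012 to 0.023), and nearest to Klf2 were Tank, Pip4p2 and Ppp1r11 (0.029 to 0.034). Ccr7 was closest to Parp3, Gata3 and Ap4s1 (0.014 to 0.018), and Cd44 to Lipa, Cks1b and Atp6ap2 (0.028 to 0.031). With a pair of groups, such likeness rests almost wholly on the size of the group difference, and it was common. Within 0.1 log2 units lay 53 genes for S1pr1, 337 for S1pr4, 385 for Klf2, 482 for Ccr7 and 75 for Cd44.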

How the data were processed

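Expression was measured in 6 samples labelled as CD4+CD25+ regulatory T cells, 1 Affymetrix Mouse430a array each. Per the labels' design text, the authors normalised the arrays with RMA and used MAYDAY 2.12. The values they deposited are on the log2 scale. Because RMA forces arrays towards 1 shared distribution, it hides changes in total RNA and lets a large imbalance displace unrelated genes.

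The table lists 22690 probe sets, of which 22626 were tested once 64 controls had been removed. In the annotation of the platform 20380 had 1 gene symbol, 691 several and 1555 were unnamed here. Entrez identifiers matched 20351 of those with 1 symbol to RefSeq. Titles gave the groups. Two-sided tests used limma 3.58.1 under R 4.3.3, and p-values were adjusted by Benjamini and Hochberg's method over all probe sets, or over genes for the pathway list and T cell genes. The fit was tested on simulated data. The adjusted p threshold was 0.05, with the 2-fold threshold of the design text beside it. Where 1 group lay in the range of the bacterial controls, the fold is "at least", from the top of that range. Promoters and plots used Python 3.11.15, pandas 2.3.3 and matplotlib 3.10.9. The genes examined and all lists were chosen with earlier results of these data known. The text names every gene of these genes and lists that was measured, Hdac3, Foxp3, the CD3 genes and Cd4, and the 3 nearest genes per gene. Marker genes and second probe sets beyond these were chosen after their values were seen. The number of arrays limits the precision.

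Alternatives were the methods' t-test, replicate number as a block, median centring, cyclic loess, quantile normalisation again, array weights, a 1.5-fold threshold, dropping the dimmest 33.3% of probe sets, a robust prior with a trend, leaving out each sample in turn, 1 probe set per gene or the mean of a gene's sets, leaving out sets that can match several transcripts, and another T cell gene as the scale.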

Additional observations from a re-analysis of the deposited data

How the results depend on the processing

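S1pr1, S1pr4, Klf2, Ccr7 and both Cd44 probe sets kept their direction and their call under every alternative run. S1pr1 lay between -1.71 and -1.35, S1pr4 between -1.18 and -0.82, Klf2 between -1.07 and -0.69, Ccr7 between -1.08 and -0.71, and the Cd44 sets between 1.48 and 1.85 and between 1.24 and 1.57. Relative to Cd4 alone in place of the CD3 genes, S1pr1 was at -0.53 and passed, and S1pr4, Klf2 and Ccr7 at 0.00751, 0.11 and 0.10 did not. Of all probe sets 4559 were called higher and 8473 lower, and 1790 and 979 past 2-fold. The lower counts were 13029 and 1523 with median centring and 4960 and 609 with cyclic loess. A 1.5-fold threshold gave 2784 higher and 3057 lower. With 1 probe set per gene, where fewer features are tested, 2779 were higher and 4809 lower, and 1120 and 553 past 2-fold. In the pathway list 9 genes were higher and 13 lower. Median centring gave 7 higher and 20 lower and cyclic loess 12 higher and 7 lower, so the balance turned over, and the cause was not tested. Gene by gene, Sphk1, S1pr3 and Sgpp1 changed their call under the most alternatives. Calls of Klf13, Gna13, Dock2, Spns2, Selplg, Rap1b, Gnai2, Stk4, Sphk2, Rassf5, Klf6, Klf3, Itgb2, Itgb1 and Cxcr4 changed under fewer.

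Replicate numbers are shared between the groups, but same-numbered samples did not consistently deviate together (correlations of 0.092, 0.084 and -0.19). Not every sample correlated best with its own number. With 3 arrays a group, these correlations cannot show what the shared number stands for. With the replicate number as a block 4361 probe sets were higher and 8173 lower, S1pr1 kept its call (adjusted p = 5.36e-05), and in the pathway list 9 were higher and 13 lower, with S1pr3 lost and Sgpp1 gained. Samples correlated at 0.997 to 0.998 within Hdac3 deleted and 0.996 to 0.997 within wild type samples, and with 3 arrays a group the number of arrays limits the precision.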

Other observations

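Probe sets of 1 gene did not always move alike. The 6 probe sets of Gna13, a G protein that restrains migration, ran from -0.32 (1460317_s_at, adjusted p = 0.0171) to 0.67 (1430295_at, adjusted p = 0.000194), and 1453470_a_at was higher by 0.42 (adjusted p = 0.000857). By contrast, the 3 probe sets of Coro1a were all lower, at -0.66, -1.14 and -0.86, and 1435288_at, which differed by the most of these, averaged 7.40 ± 0.12 in Hdac3 deleted and 8.54 ± 0.06 in wild type samples (SD, n = 3 each, limma adjusted p = 1.76e-05).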
